A study of Mus musculus with 6 samples.

Results

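A set of 10 genes that mark oligodendrocyte precursors committed to differentiation, and the premyelinating oligodendrocytes they become, was followed in mouse cerebral cortex: *Bcas1*, *Gpr17*, *Lims2*, *Enpp6*, *Neu4*, *Itpr2*, *Rras2*, *Bfsp2*, *Cnksr3* and *Fyn*. They are 10 of the 34745 genes in the deposited table and were taken from it by symbol. They were chosen by their stage in the lineage and with their FPKM in these 6 libraries already known, so the values that chose them include the cKO against control contrast. Their differences between the groups are therefore given as a description, with a standard error and without a test. All animals were at postnatal day 8 and carried Pen-2 F/F, the floxed allele of the gene for PEN-2, a subunit of the γ-secretase protease that cleaves Notch receptors. The 3 control samples carried nothing else. The 3 Pen-2 cKO samples also carried hGFAP-Cre, in which a human GFAP promoter drives Cre recombinase. That promoter is active in radial glial progenitors as well as in astrocytes, so Cre can act in neurons, astrocytes and oligodendrocyte lineage cells alike. The transgene came with the cKO genotype alone, so an effect of Cre itself and one of losing PEN-2 cannot be told apart.

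Levels are in FPKM, fragment counts scaled by gene length and sequencing depth, in bulk RNA of whole tissue. Fewer cells of a type and less RNA per cell cannot be told apart in such data. The smallest steps between values implied 20300000 to 26800000 fragments per library. *Psenen*, which encodes PEN-2, was at 6.35, 6.86 and 7.32 FPKM in the control libraries and at 3.56, 3.90 and 4.03 FPKM in the cKO libraries (log2 difference -0.82, SE 0.09, limma adjusted p = 0.00441). The third cKO library stood apart in other glial genes: *Gfap* was at 52.8 FPKM there, against 19.1 and 20.2 FPKM in the others, and *Apoe* at 85.0 FPKM against 28.1 and 16.4 FPKM. The 10 genes are therefore given library by library. The labels number the samples without saying that each is a separate animal, so p-values measure only the spread between these samples.

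Oligodendrocyte precursors divide throughout the young cortex. A precursor that commits to differentiation leaves the cell cycle, switches on the receptor GPR17 and the early differentiation genes, and passes through a premyelinating stage with many branched processes before it wraps axons in myelin or dies. The stage is short, and its genes are therefore used as signs of ongoing oligodendrocyte formation rather than of finished myelin.

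The promoters of these genes differed in CpG content, and 4 of them are shown for that contrast. RefSeq promoter windows, from 250 bases before to 50 bases after an annotated start (GRCm38.p6, the same coordinates as mm10), were matched for 7 of the 10 genes: *Enpp6*, *Bfsp2*, *Neu4*, *Rras2*, *Cnksr3*, *Itpr2* and *Fyn*. *Enpp6* and *Bfsp2* were the least CpG-rich of the 7 and had the largest fold differences among them. *Rras2* and *Fyn* were CpG-rich and had the smallest, though *Cnksr3* and *Itpr2* held more CpG pairs than *Rras2*. The control means of *Rras2* and *Fyn*, 33.0 and 22.8 FPKM, were also the highest of the 7, the others being at 0.684 to 1.40 FPKM. Capitals mark CpG pairs.
Enpp6 (chr8:46986637-46986936, plus strand): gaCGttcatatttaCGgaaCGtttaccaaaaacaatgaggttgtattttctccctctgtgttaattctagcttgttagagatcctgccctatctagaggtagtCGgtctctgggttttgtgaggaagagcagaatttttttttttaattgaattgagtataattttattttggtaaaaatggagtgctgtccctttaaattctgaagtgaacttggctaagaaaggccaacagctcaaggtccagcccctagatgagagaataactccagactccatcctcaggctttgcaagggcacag
Bfsp2 (chr9:103449127-103449426, minus strand): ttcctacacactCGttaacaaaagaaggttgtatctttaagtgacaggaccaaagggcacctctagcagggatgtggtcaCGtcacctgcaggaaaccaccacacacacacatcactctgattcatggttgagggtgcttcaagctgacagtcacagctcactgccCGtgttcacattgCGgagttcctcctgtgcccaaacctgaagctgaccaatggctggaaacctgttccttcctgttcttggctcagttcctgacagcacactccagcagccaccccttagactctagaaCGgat
Fyn (chr10:39369549-39369848, plus strand): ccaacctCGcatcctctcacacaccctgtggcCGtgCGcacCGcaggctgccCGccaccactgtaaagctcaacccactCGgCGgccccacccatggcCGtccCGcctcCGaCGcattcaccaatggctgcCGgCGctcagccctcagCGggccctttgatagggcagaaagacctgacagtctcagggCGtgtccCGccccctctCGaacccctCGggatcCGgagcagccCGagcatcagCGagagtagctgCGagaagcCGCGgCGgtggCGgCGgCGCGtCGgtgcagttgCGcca
Rras2 (chr7:114117732-114118031, minus strand): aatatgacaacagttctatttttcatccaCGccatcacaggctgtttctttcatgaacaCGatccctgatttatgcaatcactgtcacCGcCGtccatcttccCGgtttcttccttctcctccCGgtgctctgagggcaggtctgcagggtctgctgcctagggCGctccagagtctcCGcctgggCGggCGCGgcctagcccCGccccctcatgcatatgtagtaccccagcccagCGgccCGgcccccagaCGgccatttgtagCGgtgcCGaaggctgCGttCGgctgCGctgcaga
The windows held 4 CpG pairs in *Enpp6*, 5 in *Bfsp2*, 31 in *Fyn* and 20 in *Rras2*, against a median of 7 over all 32851 windows. The windows of *Bfsp2* and *Fyn* lie inside the ranges deposited for these genes, so they stand at later annotated starts than the ones where the ranges begin.

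*Gpr17* encodes a G protein-coupled receptor that appears at commitment, holds back final maturation and is lost before myelination. It was the most abundant of the 10 genes in cKO cortex. *Gpr17* (ENSMUSG00000052229, mm10 chromosome 18, 31942997 to 31949636, minus strand) was at 19.2, 21.2 and 23.1 FPKM in control and at 67.5, 88.7 and 73.1 FPKM in cKO libraries. Every cKO library lay above every control library, and the lowest cKO value was the one of replicate 1. The control and cKO means were 21.2 ± 1.97 and 76.4 ± 11.0 FPKM (SD, n = 3 per group), a ratio of 3.61 and a log2 difference of 1.84 (SE 0.11).

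*Lims2* encodes PINCH2, a LIM-domain adaptor that binds integrin-linked kinase at sites of cell adhesion. *Lims2* (ENSMUSG00000024395, chromosome 18, 31931507 to 31958619, plus strand) was at 4.08, 3.45 and 5.43 FPKM in control and at 20.8, 28.9 and 22.8 FPKM in cKO libraries. The groups did not overlap, and the order of the cKO libraries was the one seen for *Gpr17*. The means were 4.32 ± 1.01 and 24.2 ± 4.19 FPKM, a ratio of 5.59 and a log2 difference of 2.47 (SE 0.18).

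*Gpr17* lies inside *Lims2* on the opposite strand, so their values are not independent measurements. In GENCODE M21, 2 exons of the longest *Lims2* transcript, 67 and 121 bases long, fall within the large exon of *Gpr17*. They make up 188 of its 1870 exon bases, or 10.1%, and 3.6% of the exon bases of *Gpr17*. Whether counting used strand is not given in the sources used here, so fragments of those stretches cannot be told apart. The value of *Lims2* divided by that of *Gpr17* was 0.213, 0.163 and 0.235 in control and 0.308, 0.326 and 0.312 in cKO libraries. This ratio was higher in every cKO library than in every control library. How many of the fragments counted for *Lims2* came from the shared stretches was not tested.

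**Figure D1:**
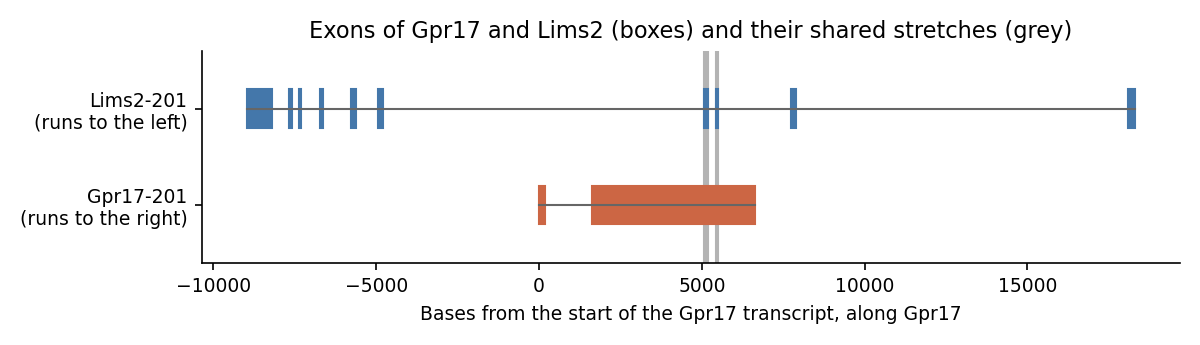
Exons (boxes) of the single *Gpr17* transcript and of the longest *Lims2* transcript, with the horizontal axis in bases from the start of *Gpr17* along its own direction; *Lims2* runs the other way. The grey bands are the 2 *Lims2* exons, 188 bases in all, that lie within the large exon of *Gpr17*.

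Genes of premyelinating oligodendrocytes had log2 differences near 3. Their place within the set depends on the pseudocount: with 1 FPKM in place of 0.1, *Bcas1* was at 2.66, *Lims2* at 2.25, *Enpp6* at 2.18 and *Bfsp2* at 2.08. *Bcas1* encodes a cytoplasmic protein that labels oligodendrocytes about to myelinate or just beginning to. *Bcas1* (ENSMUSG00000013523, chromosome 2, 170346991 to 170427845, minus strand) was at 4.08, 3.94 and 6.22 FPKM in control and at 27.5, 38.4 and 40.0 FPKM in cKO libraries. The lowest cKO value was far above the highest control value. The means were 4.75 ± 1.28 and 35.3 ± 6.81 FPKM, a ratio of 7.44 and a log2 difference of 2.88 (SE 0.21).

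*Enpp6* encodes a choline-specific phosphodiesterase of the cell surface and is used to label oligodendrocytes in the act of forming. *Enpp6* (ENSMUSG00000038173, chromosome 8, 46986925 to 47094895, plus strand) was at 0.750, 0.635 and 1.23 FPKM in control and at 5.88, 7.98 and 8.54 FPKM in cKO libraries. The third library was the highest of its group in both genotypes. The means were 0.872 ± 0.317 and 7.47 ± 1.41 FPKM, a ratio of 8.56 and a log2 difference of 2.99 (SE 0.24).

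*Bfsp2* encodes phakinin, a beaded filament protein best known from the eye lens, whose transcript also appears in newly formed oligodendrocytes. *Bfsp2* (ENSMUSG00000032556, chromosome 9, 103424920 to 103480420, minus strand) was at 0.721, 0.411 and 0.920 FPKM in control and at 4.53, 6.30 and 7.78 FPKM in cKO libraries. The third library was again the highest in each group. The means were 0.684 ± 0.257 and 6.20 ± 1.62 FPKM, a ratio of 9.07, the highest of the set in FPKM, and a log2 difference of 3.03 (SE 0.29). The control level rests on few fragments, about 14 in replicate 2 at the length of the longest transcript.

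Within a library these 3 genes stood in similar proportions. *Enpp6* divided by *Bcas1* was 0.181 ± 0.0186 in control and 0.212 ± 0.00321 in cKO libraries, and *Bfsp2* divided by *Bcas1* was 0.143 ± 0.0365 and 0.174 ± 0.0172. The first ratio was slightly higher in every cKO than in every control library, and the second overlapped between the groups. The proportion to the receptor of the earlier stage differed more. *Bcas1* divided by *Gpr17* was 0.213, 0.186 and 0.269 in control and 0.407, 0.433 and 0.548 in cKO libraries, so that *Bcas1* stood higher relative to *Gpr17* in all 3 cKO libraries. *Enpp6* divided by *Gpr17* was 0.0408 ± 0.0118 in control and 0.098 ± 0.0165 in cKO libraries.

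*Neu4* encodes a sialidase, an enzyme that removes sialic acids from glycans, and is expressed from the precursor to the committed stage. *Neu4* (ENSMUSG00000034000, chromosome 1, 94020451 to 94028334, plus strand) was at 1.28, 0.998 and 1.31 FPKM in control and at 4.06, 5.14 and 5.37 FPKM in cKO libraries. The groups were well apart, with means of 1.20 ± 0.172 and 4.86 ± 0.696 FPKM, a ratio of 4.06 and a log2 difference of 1.93 (SE 0.16). It moved close to *Gpr17*: *Neu4* divided by *Gpr17* was 0.0568 ± 0.00987 in control and 0.0638 ± 0.00837 in cKO libraries, and these ranges overlapped.

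The signalling genes had smaller differences. *Itpr2* encodes an IP3 receptor, a calcium release channel of the endoplasmic reticulum, and names a class of differentiating precursors in single-cell surveys; astrocytes express it too. *Itpr2* (ENSMUSG00000030287, chromosome 6, 146108299 to 146502223, minus strand) was at 1.30, 1.38 and 1.51 FPKM in control and at 2.70, 2.85 and 3.84 FPKM in cKO libraries, the third cKO library standing above the others. The ratio of means was 2.24 and the log2 difference 1.09 (SE 0.16).

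*Cnksr3* encodes a scaffold protein of the CNK family, which link Ras pathway proteins at membranes. *Cnksr3* (ENSMUSG00000015202, chromosome 10, 7119063 to 7212237, minus strand) was at 0.947, 0.645 and 1.10 FPKM in control and at 2.08, 2.88 and 3.48 FPKM in cKO libraries. The groups did not overlap, but the spread within each was wide for the difference between them. The ratio of means was 3.14 and the log2 difference 1.55 (SE 0.24).

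*Fyn* encodes a Src family kinase that relays contact with axons to the local translation of *Mbp* mRNA; neurons express it as well. *Fyn* (ENSMUSG00000019843, chromosome 10, 39368855 to 39565381, plus strand) was at 23.2, 22.8 and 22.3 FPKM in control and at 30.6, 36.8 and 33.7 FPKM in cKO libraries. The control libraries were nearly equal and all cKO libraries lay above them, with a ratio of 1.48 and a log2 difference of 0.56 (SE 0.07).

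*Rras2* encodes the small GTPase TC21 and was the exception in direction. Its control mean was the highest of the set, and which cells of the cortex carried it was not tested. *Rras2* (ENSMUSG00000055723, chromosome 7, 114046785 to 114117781, minus strand) was at 32.9, 34.6 and 31.6 FPKM in control and at 30.8, 29.8 and 28.2 FPKM in cKO libraries. Each cKO value was below each control value, by a small margin: the means were 33.0 ± 1.49 and 29.6 ± 1.30 FPKM, a log2 difference of -0.16 (SE 0.06).

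**Figure D2:**
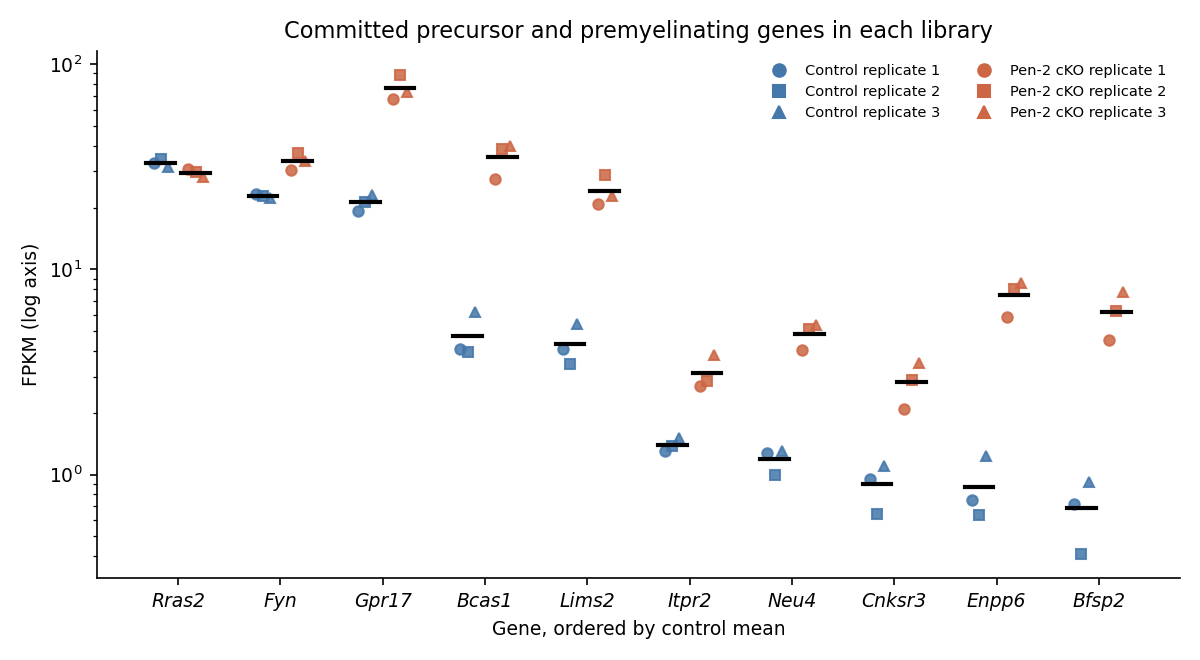
FPKM of the 10 genes in each library on a log axis, ordered by control mean; blue marks are control and orange marks cKO libraries, shapes give the replicate number and black bars the group means. All but 1 of the genes have all cKO libraries above all control libraries, while *Rras2* has all of them slightly below (33.0 and 29.6 FPKM).

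Across the set, 9 of the 10 genes had every cKO library above every control library, against 21.5% of the 14147 genes tested, and 1 had every cKO library below, against 8.17%. In the fit over all genes 9 passed an adjusted p of 0.05 as higher (3.67% of all genes tested) and none as lower (1.87%). A cKO mean at least 2 times the control mean was found for 8 (1.87% of all). These counts follow from how the genes were chosen and are given beside the background only. All 10 passed the filter on low values, 0.5 FPKM in at least 3 libraries, and *Bfsp2* in control replicate 2 gave the only value below 0.5 FPKM. The median log2 difference was 1.89, against 0.07 over all genes tested, and the range ran from -0.16 in *Rras2* to 3.03 in *Bfsp2*. The order of the libraries within a group was shared in part: 9 were lowest in cKO replicate 1, the other being *Rras2*, and 8 were highest in control replicate 3. The highest cKO library was replicate 3 for 6, replicate 2 for 3 and replicate 1 for 1, and 6 were lowest in control replicate 2. The shares of all genes tested with these orders were not counted, so the orders are not read as a trait of the set.

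Because of these differences the genes changed places by level. In control cortex *Rras2* and *Fyn* had the highest means, *Gpr17* followed, *Bcas1* and *Lims2* came next, and *Itpr2*, *Neu4*, *Cnksr3*, *Enpp6* and *Bfsp2* were all below 1.5 FPKM on average. The library values of *Fyn* and *Gpr17* overlapped there, as did those of *Bcas1* and *Lims2*. Among the lowest genes, *Itpr2* overlapped *Neu4*, *Neu4* overlapped *Cnksr3* and *Enpp6*, and *Cnksr3*, *Enpp6* and *Bfsp2* overlapped one another. In cKO cortex *Gpr17* and *Bcas1* led, ahead of *Fyn*, *Rras2* and *Lims2*, then *Enpp6*, *Bfsp2*, *Neu4*, *Itpr2* and *Cnksr3*. Of these, *Bcas1* overlapped *Fyn*, *Rras2* and *Lims2*, *Fyn* overlapped *Rras2*, and *Rras2* overlapped *Lims2*. *Enpp6* and *Neu4* each overlapped *Bfsp2*, and *Itpr2* overlapped *Cnksr3*. *Enpp6* lay above *Itpr2*, *Neu4* and *Cnksr3* in each cKO library.

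Transcription factors carried by the whole oligodendrocyte lineage rose in the same libraries. *Sox10*, required for terminal differentiation, rose from 9.53 ± 0.908 to 37.8 ± 6.19 FPKM (log2 difference 1.97, SE 0.13, limma adjusted p = 0.000545). *Olig2* rose from 14.1 ± 1.42 to 41.9 ± 4.62 FPKM (1.57, adjusted p = 0.000545) and *Olig1* from 51.8 ± 9.80 to 113 ± 14.7 FPKM (1.13, adjusted p = 0.00779). The 10 genes were therefore also expressed relative to the mean log2 level of these 3 factors in the same library.

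On that relative scale the set divided. In bulk RNA the relative level also depends on RNA from cells outside the lineage, such as *Fyn* in neurons and *Itpr2* in astrocytes. How much of each gene's level came from the lineage was not tested. *Bfsp2*, *Enpp6*, *Bcas1* and *Lims2* were higher in cKO cortex by 1.47, 1.43, 1.33 and 0.91 on the log2 scale, and stood higher against each of the 3 factors taken singly. For *Bcas1* the relative level was -2.03, -2.20 and -1.79 in control and -0.80, -0.67 and -0.58 in cKO libraries. *Neu4* and *Gpr17* were higher by 0.38 and 0.29, with no overlap between the groups, but against *Sox10* alone their differences were -0.03 and -0.13, and with a pseudocount of 1 FPKM that of *Neu4* was -0.09. *Cnksr3* had a difference of -0.01 with overlapping groups (-0.50 with a pseudocount of 1 FPKM). *Itpr2*, *Fyn* and *Rras2* had differences of -0.46, -1.0 and -1.71, and were lower against each factor singly, although *Itpr2* overlapped between the groups against *Olig1*. With that pseudocount *Bfsp2* and *Enpp6* were higher by 0.58 and 0.68, less than *Bcas1* at 1.16 and *Lims2* at 0.75. The median over the 10 genes was 0.33, and it was -0.08 against *Sox10* alone and 0.11 with a pseudocount of 1 FPKM.

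**Figure D3:**
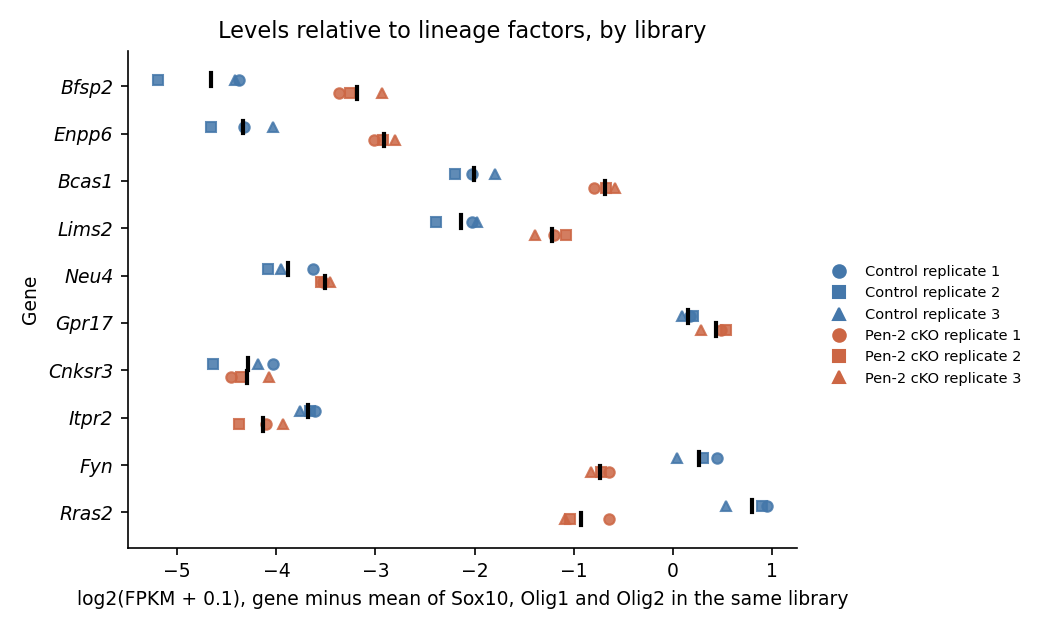
Log2 level of each gene minus the mean log2 level of *Sox10*, *Olig1* and *Olig2* in the same library (horizontal axis, log2 of FPKM + 0.1); blue marks are control and orange marks cKO libraries, with black bars at the group means. *Bfsp2* (difference 1.47), *Enpp6* and *Bcas1* lie to the right in cKO libraries, *Cnksr3* overlaps, and *Fyn* and *Rras2* (-1.71) lie to the left.

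Other genes of the same stage, from a list of single-cell markers of committed precursors and new oligodendrocytes, rose in part. Of 26 listed, 22 were tested: 13 rose, none fell and 9 did not pass, with a median log2 difference of 0.45, against the background of 3.67% higher. *Plxnb3*, a semaphorin receptor, rose from 0.633 ± 0.0903 to 6.24 ± 1.51 FPKM (log2 difference 3.09, SE 0.20, limma adjusted p = 0.000545). *Bmp4*, a secreted growth factor of committed precursors, was at 0.639, 0.773 and 0.839 FPKM in control and at 4.45, 6.17 and 5.85 FPKM in cKO libraries (2.71, adjusted p = 0.000545). *Tns3*, a focal adhesion protein, rose from 4.93 ± 0.166 to 10.6 ± 1.78 FPKM, and *Sema5a*, a guidance molecule, from 5.54 ± 0.221 to 9.74 ± 0.709 FPKM. The count depended on single libraries: leaving out control replicate 1 or control replicate 2 gave 5 each, and leaving out cKO replicate 2 gave 6. *Plxnb3*, *Bmp4*, *Tns3* and *Sema5a* passed with any 1 library left out (adjusted p at most 0.0298). *Tcf7l2* and *Casr* were below the filter, and *Samd4b* and *9630013A20Rik* were not analysed here.

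Genes of the stages before and after were counted in the same way. Of 12 early precursor genes, 3 rose, 2 fell and 7 did not pass, with a median of 0.26. Every cKO library lay above every control library for 7 of them (21.5% of all genes tested) and below for 3 (8.17%). In either direction 9 had an unadjusted limma p under 0.05. *Matn4*, a matrix protein, rose from 2.21 ± 0.249 to 9.65 ± 1.98 FPKM (log2 difference 2.06, adjusted p = 0.00125). *C1ql1*, a secreted C1q-like protein, rose from 5.24 ± 0.453 to 11.8 ± 0.975 FPKM, and *Lhfpl3* from 11.8 ± 0.149 to 20.8 ± 2.44 FPKM. *Ptprz1*, a receptor phosphatase that astrocytes and radial glia share, fell from 22.7 ± 1.46 to 12.8 ± 1.40 FPKM. *Emid1* fell by 0.48 on the log2 scale (adjusted p = 0.0446), and that call ended with any 1 library left out except control replicate 3 (adjusted p up to 0.148). *Pdgfra*, the growth factor receptor that defines dividing precursors, was at 10.8, 10.9 and 10.4 FPKM in control and at 11.6, 13.3 and 13.8 FPKM in cKO libraries and did not pass (adjusted p = 0.102). *Emid1* and *Pdgfra* were named after their values were seen.

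Of 17 genes of myelinating oligodendrocytes, 13 were tested: 9 rose, none fell and 4 did not pass, with a median of 1.75. *Myrf*, the transcription factor that turns on myelin genes, rose from 0.605 ± 0.077 to 3.92 ± 1.19 FPKM (log2 difference 2.47, adjusted p = 0.00199), and *Fa2h*, which makes the hydroxylated lipids of myelin, from 0.396 ± 0.0905 to 2.60 ± 0.501 FPKM. *Cnp* rose from 14.1 ± 2.38 to 40.8 ± 7.58 FPKM and *Mbp* from 4.03 ± 0.796 to 13.9 ± 3.23 FPKM. Both encode abundant proteins of the myelin sheath. Some genes of mature cells were low in both groups: *Opalin*, *Aspa* and *Ermn* were among those below the filter, and *Opalin* was listed at 0 in all control libraries and was at most 0.0866 FPKM in cKO libraries.

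**Figure D4:**
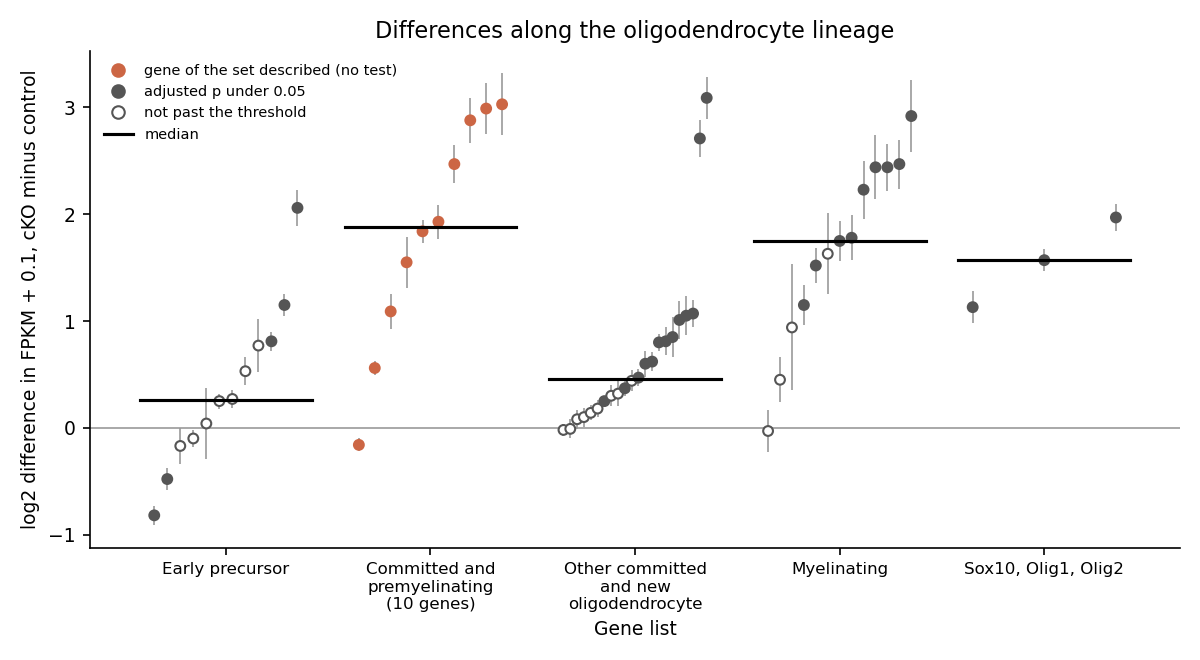
Log2 difference, cKO minus control, with its standard error for each tested gene of the lists along the lineage; black bars are list medians, filled grey marks passed an adjusted p of 0.05, open marks did not, and the 10 genes described here are orange and carry no test. Medians run from 0.26 in early precursor genes to 1.89 in the 10 genes, 0.45 in other genes of the stage and 1.75 in myelinating genes.

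Relatives and binding partners of the 10 genes were read from a separate list. Of 41 listed genes, 34 were tested: 2 rose, 1 fell and 31 did not pass, with a median log2 difference of 0.13, against 5.53% called in either direction among all genes. *Slc44a1*, a choline transporter listed with *Enpp6*, was at 6.64, 6.58 and 6.48 FPKM in control and at 9.53, 11.5 and 11.3 FPKM in cKO libraries (log2 difference 0.70, SE 0.09, adjusted p = 0.00666), and it passed with any 1 library left out. *Parvb*, a parvin of the complex that LIMS2 joins, rose from 7.25 ± 0.310 to 12.1 ± 2.19 FPKM (0.71, adjusted p = 0.0232). Its adjusted p was 0.0729 when control replicate 1 was left out, 0.0946 when replicate 2 was, 0.05 when replicate 3 was and 0.0768 when cKO replicate 2 was. *Mras*, a relative of *Rras2*, fell from 23.1 ± 0.452 to 18.2 ± 0.269 FPKM (-0.34, adjusted p = 0.0128), with an adjusted p of 0.0600 without control replicate 2 and of 0.0552 and 0.0576 without cKO replicates 1 and 2.

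The other tested relatives and partners did not pass. Of all 34 tested, the called ones included, 15 had an unadjusted limma p under 0.05. Every cKO library lay above every control library for 13 (21.5% of all genes tested) and below for 3 (8.17%). *Enpp2*, named after its values were seen, was at 11.8, 12.5 and 13.6 FPKM in control and at 19.4, 17.2 and 29.2 FPKM in cKO libraries (limma adjusted p = 0.0636). The IP3 receptor *Itpr1* had control and cKO means of 4.42 ± 0.257 and 4.37 ± 0.255 FPKM, and *Itpr3* of 0.492 ± 0.148 and 0.445 ± 0.105 FPKM. The sialidases *Neu1* and *Neu3* were at 4.49 ± 0.247 and 0.898 ± 0.139 FPKM in control and at 5.03 ± 0.519 and 0.768 ± 0.252 FPKM in cKO. *Bfsp1*, which encodes the filament partner of phakinin in the lens, was at 1.22 ± 0.695 and 1.16 ± 0.509 FPKM. *Cnksr2*, the neuronal relative of *Cnksr3*, was at 14.1 ± 0.277 and 11.5 ± 1.79 FPKM, and *Cnksr1* was below the filter. The nucleotide receptors *P2ry12* and *P2ry1*, listed with *Gpr17*, had log2 differences of -0.34 and 0.25. Among 12 partners and relatives of *Fyn* none passed, with *Mapt* at 202 ± 9.07 and 180 ± 8.27 FPKM and *Cntn1* at 52.6 ± 2.99 and 57.5 ± 1.39 FPKM; 7 of the 12 had an unadjusted limma p under 0.05.

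The contrast in CpG content was noticed with the expression values known. The 3 windows with few CpG pairs were those of *Enpp6*, *Bfsp2* and *Neu4* (4, 5 and 6 pairs), and their cKO to control ratios were 8.56, 9.07 and 4.06. The 4 with many were those of *Rras2*, *Cnksr3*, *Itpr2* and *Fyn* (20, 21, 26 and 31 pairs), with ratios of 0.895, 3.14, 2.24 and 1.48. This order is a description of 7 chosen genes, without a test. Over all tested genes with a single window 4.65% of 861 genes with at most 7 CpG pairs were called higher, against 3.89% of 7273 genes with more, and 3.83% were called lower, against 1.70%.

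**Figure D5:**
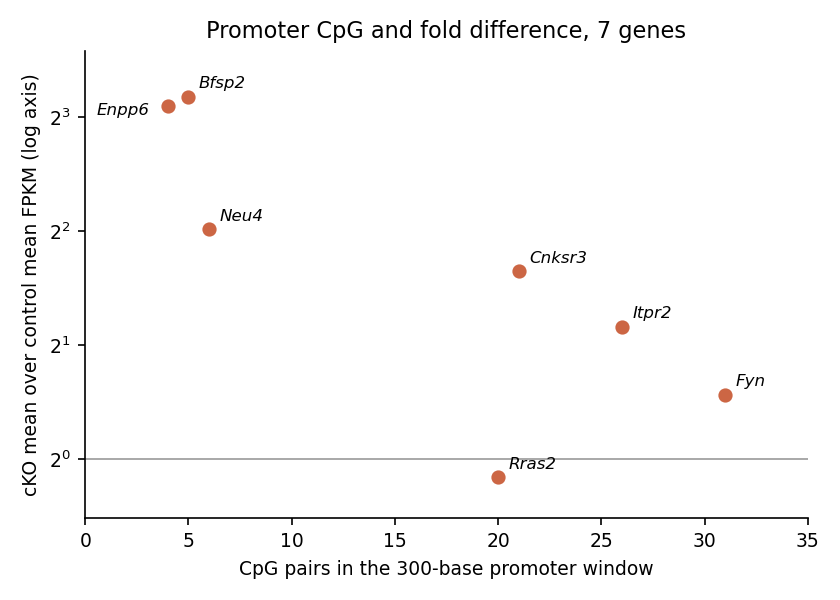
Number of CpG pairs in the 300-base promoter window (horizontal axis) against the cKO mean divided by the control mean in FPKM (vertical log axis) for the 7 genes with a RefSeq window. *Enpp6*, *Bfsp2* and *Neu4*, with 4 to 6 pairs, have ratios from 4.06 to 9.07, and the 4 genes with 20 or more pairs have ratios from 0.895 to 3.14.

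Short motifs were searched on both strands of the windows. The SOX core, ACAAAG or ACAATG, was in 2 of the 7, starting 219 bases before the start in *Enpp6* (the acaatg in the sequence above) and 230 bases before it in *Cnksr3*, against 28.6% of all windows. The E-box CAGNTG, bound by factors such as OLIG2, was in 5 of 7, against 51.4%. The MYRF motif CTGGNAC was in *Cnksr3* alone of the 7 (19.3% of all windows), and the RBPJ core TGGGAA, read by the Notch effector complex, in *Neu4* alone (25.6%). No matches of different motifs overlapped in the 7 windows. *Rras2* held none of the 4, and neither *Gpr17*, *Lims2* nor *Bcas1* had a window to search.

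By the annotation deposited with the tables, 7 of the 10 genes carried the term plasma membrane, namely *Gpr17*, *Lims2*, *Enpp6*, *Itpr2*, *Rras2*, *Bfsp2* and *Fyn*, against 21.7% of the 12720 annotated genes tested. The term signal transduction was carried by 6, against 25.2%, and nucleus by *Fyn* alone, against 38.4%. Cytoskeleton was carried by 2, *Bfsp2* and *Fyn*, against 11.5%. These terms were picked after the annotations of the 10 genes had been read.

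The 6 genes outside the set with the profile most like its mean were found over the 6 libraries by Pearson's r on log2 values, among 12660 genes with at least 1 FPKM on average in a group (*Lims2* was left out of the mean). They were *Ube2c* (0.9991), *Mrpl24* (0.9986), *Sh3d19* (0.9973), *Lcp1* (0.9969), *Sh3bp4* (0.9968) and *Zbtb1* (0.9964). In that order their log2 differences were 1.46, 0.50, 0.46, 0.70, 1.17 and 0.45, against a median of 1.89 in the set. Pearson's r takes no account of that size, and *Zbtb1* did not pass (limma adjusted p = 0.102). For deviations from the group means alone, r was 0.92 to 0.99. *Ube2c*, a ubiquitin-conjugating enzyme of mitosis, was at 1.88, 1.78 and 2.21 FPKM in control and at 4.87, 5.61 and 6.26 FPKM in cKO libraries. Like the mean of the set, which was -0.90, -1.06 and -0.66 in control and 0.64, 0.95 and 1.03 in cKO libraries on a centred log2 scale, it was lowest in control replicate 2 and highest in cKO replicate 3. With 6 libraries in 2 groups, r mostly reflects the difference between the groups.

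Marker genes for the tissue's other cells were read beside these results, and their part in them was not tested. Astrocyte markers were lower: 4 of 5 fell, with a median of -1.93 and a summed level of 160 to 180 FPKM in control libraries and of 44.6, 36.2 and 77.4 FPKM in cKO replicates 1, 2 and 3, the third being the highest. These were *Aldoc* (log2 difference -2.41), *Aldh1l1* (-2.56), *Slc1a3* (-1.93) and *Aqp4* (-1.49), the last with an adjusted p of 0.0462 that became 0.107, 0.119 and 0.088 on leaving out control replicate 1, 2 or 3, and 0.143 and 0.128 on leaving out cKO replicate 1 or 2. *Itpr2*, which astrocytes share, was higher in the same cKO libraries. Neuron markers summed to 1550 to 1610 and 1280 to 1360 FPKM, most of it *Tubb3*, with 1 of 4 lower: *Tubb3* fell by 0.30 on the log2 scale, a call that ended without control replicates 1 and 2 and cKO replicate 2 (adjusted p 0.0577, 0.0751 and 0.0732). *Snap25*, *Syt1* and *Rbfox3* were named after their values were seen. The log2 differences of *Snap25* and *Syt1* were -0.06 and -0.03, with overlapping groups. *Rbfox3* was lower in every cKO than in every control library (-0.22) but did not pass (limma adjusted p = 0.0941). Of the 4 neuron markers, 2 had an unadjusted limma p under 0.05.

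Of 5 striatal neuron markers *Rgs9* rose (0.59, adjusted p = 0.0492), a call that ended with each library left out (0.0544 to 0.156), and the sum was 42.5 to 82.6 FPKM in control and 77.5 to 113 FPKM in cKO libraries. The endothelial and mural sums were 37.1 to 44.4 and 29.3 to 37.3 FPKM in control and 47.0 to 51.7 and 40.3 to 43.0 FPKM in cKO, with *Cdh5* of 4 and *Abcc9* of 3 called higher. Leaving out any 1 library ended the call of *Abcc9* (adjusted p 0.0634 to 0.134), and leaving out any but control replicate 3 ended that of *Cdh5* (up to 0.143). None of 4 microglia markers passed by limma, 1 having an unadjusted p under 0.05, and their sum was 13.1 to 16.2 and 15.0 to 21.8 FPKM. Of the choroid plexus markers 2 of 4 were tested and none passed, with 1 unadjusted p under 0.05. *Ttr* was at 33.1, 104 and 178 FPKM in control and at 324, 182 and 877 FPKM in cKO libraries, highest in cKO replicate 3 as many of the 10 genes were. Schwann cell markers were near 0, with a sum of at most 0.382 FPKM, in both groups.

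Over all genes 519 were called higher and 264 lower, 66.3% higher. That split depended on scaling: it was 314 and 343 (47.8%) with median-ratio scaling, 351 and 346 (50.4%) with upper-quartile scaling and 908 and 244 (78.8%) with equal sums. All 3 scalings left 9 of the 10 genes called higher and none lower. The authors' deposited table, made by a test not given in the sources used here, marks 593 genes as up and 112 as down. It marks 8 of the 10 genes as up, leaving *Fyn* and *Rras2* without a mark. The counts for the 10 genes under the scalings and in the authors' marks follow from how the genes were chosen. They are given as a description only.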

How the data were processed

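RNA sequencing libraries of total RNA from cortex, 3 control and 3 cKO, were compared. The values the authors deposited are FPKM, per the file headers, although the series-wide table is named for raw counts. Alignment was to mm10, per the submitters' processing notes. The sources used here do not give the aligner, the counter or whether strand was used. The 34745 values of each per-library table equalled those of the series-wide table. The q-values and up or down marks are the authors' deposited ones, and only the marks were used. Depth was inferred from the step between low values of single-transcript genes, of which 78.7 to 86.9% came out within 0.05 of a whole fragment. Genes with several transcripts gave no counts, so no count test was run.

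A filter of 0.5 FPKM in 3 or more libraries left 14147 genes, which were fitted on log2(FPKM + 0.1) with limma (version 3.58.1, R 4.3.3) (trend and robust variance, group as the only term, all 6 libraries), with Benjamini-Hochberg adjustment across all of them. Differences on that scale understate changes of low genes. The script was tested on simulated data. The 10 genes, the other lists and the rule for naming genes were chosen with earlier results of these data known. That rule takes all 10 genes, from each list the 4 called genes of smallest p (the 2 of highest level where no gene was called) and the 6 genes most alike in profile. Alternatives varied the pseudocount, filter, scaling, variance options and lineage factor, added a replicate block and left out each library. Exons came from GENCODE M21 and promoters from RefSeq. Software was Python 3.11.15 (pandas 2.3.3, NumPy 2.4.6; figures by matplotlib 3.10.9).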

Additional observations from a re-analysis of the deposited data

How the results depend on the processing

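The median log2 difference of the 10 genes, 1.89, was 1.61 with a pseudocount of 1 FPKM and 1.81 to 1.99 with 1 library left out. Of the 10 genes, 7 to 9 were called higher with 1 library left out, against 0.954% to 4.11% of all genes tested. *Cnksr3* was not called without control replicate 1, control replicate 2 or cKO replicate 2, and *Itpr2* not without control replicate 2. These counts follow from how the genes were chosen. The median relative to the lineage factors, 0.33, was 0.11 with a pseudocount of 1 FPKM, -0.08 against *Sox10* alone and 0.30 to 0.40 with 1 library left out. With 1 library left out, 5 to 11 other genes of the stage were called higher against 13, 3 to 4 early precursor genes against 3, 8 to 9 myelinating genes against 9, and 1 to 4 relatives and partners against 3. With equal sums 5 early precursor genes were called higher, and 6 relatives and partners were called in either direction. Over all genes 783 were called, against 311, 220 and 842 without control replicates 1, 2 and 3 and 321, 312 and 639 without cKO replicates 1, 2 and 3. With no filter on low values 499 were called.

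The labels do not say that same-numbered libraries are paired. Deviations of same-numbered libraries from their group means correlated at 0.061, 0.012 and 0.1, and those of differently numbered ones at -0.091 to 0.056. With 3 libraries per group these values cannot show whether the numbers carry a pairing. A fit with the replicate block called 290 genes higher and 166 lower. Under the block 8 other genes of the stage were called higher, and the counts for the 10 genes and for early precursor and myelinating genes did not change. Among relatives and partners *Mras* no longer passed and *Enpp2* did. *Abcc9* and *Tubb3*, the only mural and neuron markers called, no longer passed (adjusted p = 0.0859 and 0.053). Among the single genes that the naming rule gave beside the 10, 69 values in all no longer passed under an alternative. A further 1 passed only under an alternative, and none changed sign while called. The other 661 kept their side of the threshold, among them values of genes that no fit called, such as *Itpr1*. Genes named outside the rule, such as *Emid1*, are not in these counts. Few fragments limit *Bfsp2*, *Cnksr3* and *Enpp6* in control cortex, at about 14, 45 and 64 in the lowest library.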
